A study of Mus musculus with 8 samples.

Results

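The small heat shock protein genes Hspb1, Cryab, Hspb8, Hspb6, Hspb7 and Hspb2 and the co-chaperone gene Bag3 were examined in bulk RNA sequencing (RNA-seq) of 8 MC38 tumors. These 7 genes, of 24421 in the count table, were chosen by name from earlier results of the same tumors, in which members of the family differed between photoconverted and control tumors, and that contrast is therefore described for them without a test. They were divided by their known regulation into 4 heat-inducible members (Hspb1, Cryab, Hspb8 and Bag3) and 3 muscle-restricted members (Hspb6, Hspb7 and Hspb2), although Cryab is also abundant in muscle. Of the 7 members, 6 passed the filter on low counts and Hspb2 did not.

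The MC38 line comes from a colon adenocarcinoma of the mouse, and the Kaede protein carried by the host mice fluoresces green until violet light turns it red. All tumors grew in 9-week-old female B6 Kaede mice that had received 250000 MC38 cells, and there were 4 mice in each group. On day 10, light of 405 nm was shone on the photoconverted tumors for 3 min, control tumors received none, and all were collected whole 5 h later. The comparison asks what the exposure itself does to gene expression in the tumor. Since whole tumors were used, a change in the number of cells of a type and a change in RNA per cell cannot be told apart.

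Small heat shock proteins are chaperones that need no ATP. They share an alpha-crystallin domain, assemble into oligomers, and hold unfolding proteins until ATP-driven chaperones such as the HSP70 family refold them. Heat shock factor 1 (HSF1) drives the inducible members through heat shock elements, which are repeats of GAA and its complement TTC, whereas skeletal and heart muscle express several members without stress. BAG3 binds HSPB8 and HSP70 and hands damaged proteins, including filamins of contracting muscle, to selective autophagy.

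Hspb1 (chr5:135887919-135889563, plus strand of mm10) encodes HSP27, the widely expressed stress-inducible member that also binds actin. RefSeq promoters of GRCm38.p6, from 250 bases before to 50 bases after the start, were found for 5 of the 7 members (6 promoters in all). They were searched on both strands for 2 adjoining heat shock units (GAANNTTC or TTCNNGAA, each its own reverse complement), a motif present in 15.1% of 32851 promoters. Matches lay in 4 of the 6 promoters. Hspb1 had 2 matches, starting 117 and 97 bases before its start, and its promoter (chr5:135887669-135887918, plus strand) is shown because this gene had the highest fold change of the members. Hspb6 had 1 match, 120 bases before the start of its second promoter (chr7:30553051-30553300, plus strand). Hspb7 (chr4:141420529-141420778, plus strand) had none and is shown beside them, and capitals mark the matches.
Hspb1 promoter: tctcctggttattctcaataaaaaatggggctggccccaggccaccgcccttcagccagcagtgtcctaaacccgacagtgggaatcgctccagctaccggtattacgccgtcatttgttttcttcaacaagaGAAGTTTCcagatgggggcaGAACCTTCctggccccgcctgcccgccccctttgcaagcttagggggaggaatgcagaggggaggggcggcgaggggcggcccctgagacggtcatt
Hspb6 second promoter: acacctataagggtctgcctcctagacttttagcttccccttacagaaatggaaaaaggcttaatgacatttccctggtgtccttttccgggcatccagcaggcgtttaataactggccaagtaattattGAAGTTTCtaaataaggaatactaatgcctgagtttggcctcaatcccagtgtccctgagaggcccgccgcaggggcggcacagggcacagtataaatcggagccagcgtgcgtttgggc
Hspb7 promoter: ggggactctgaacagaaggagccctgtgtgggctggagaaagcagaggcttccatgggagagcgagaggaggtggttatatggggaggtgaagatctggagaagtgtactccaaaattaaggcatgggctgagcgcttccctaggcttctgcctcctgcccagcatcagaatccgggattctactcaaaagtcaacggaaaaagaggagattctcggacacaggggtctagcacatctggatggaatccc

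In Hspb8 (chr5:116422844-116422873, minus strand) and Bag3 (chr7:128523603-128523632, plus strand) the match lay after the start, at bases 3 and 43 of the transcript. Only the 30 bases around each are shown, with the match in capitals.
Hspb8 match: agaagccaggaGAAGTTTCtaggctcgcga
Bag3 match: ccaagttctctggatgggaccaGAAGTTTC
The same 8 letters, GAAGTTTC, made up 4 of the 5 matches, once in each of Hspb1, Hspb6, Hspb8 and Bag3. On either strand these letters were found in 398 of 32851 promoters (1.21%), a count made after the matches were seen. A heat shock element of 3 units, present in 0.603% of promoters, had no match in any of the 6, nor had the CArG box (1.63%) or the MEF2 site (3.19%), binding motifs of muscle transcription factors. A match is a description of letters and not a binding site or a cause, and no match says only that the letters are not in this window.

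Levels are given as CPM, that is, read counts brought to one library size by edgeR's TMM normalization. Total counts per tumor ranged from 12576615 to 35844417. The share of counts on Rn45s, the ribosomal RNA precursor, was under 10% in 5 tumors and was 21.9% in photoconverted tumor 4, 35.7% in control tumor 2 and 23.2% in control tumor 4. In edgeR's quasi-likelihood test over 14468 genes, 0 genes passed an adjusted p of 0.05 (0%) and 322 had an unadjusted p under 0.05, whereas DESeq2 called 24 of 16969 genes (0.141%) and limma called 0. The 24 genes called by DESeq2 included Hspb1 and Cryab, from which nothing is read because the contrast chose them.

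Hspb1 was measured at 55.1, 54.8, 89.4 and 11.9 CPM in photoconverted tumors 1 to 4 and at 2.66, 3.43, 5.51 and 6.47 CPM in control tumors 1 to 4. Photoconverted tumors 1 to 3 were far above every control tumor, whereas photoconverted tumor 4 was below the other three of its group and still above all controls. The means were 52.8 ± 31.8 and 4.51 ± 1.78 CPM (SD, n = 4 each), a log2 fold change of 3.55 ± 0.57 (SE). These values rested on 174 to 2270 counts per photoconverted tumor and 32 to 155 per control tumor. Normalized counts in the second table ran from 270.3 to 2023 in photoconverted and from 60.2 to 146 in control tumors.

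Cryab (chr9:50751325-50756636, plus strand) encodes alphaB-crystallin, a lens and muscle chaperone that binds desmin and is also heat-inducible. Its levels were 12.6, 24.4, 29.0 and 12.1 CPM in photoconverted tumors and 4.14, 4.60, 9.45 and 7.14 CPM in control tumors. Every photoconverted tumor was above every control tumor, with tumors 1 and 4 closest to the controls. The means were 19.5 ± 8.50 and 6.33 ± 2.46 CPM (SD, n = 4 each), and the log2 fold change was 1.62 ± 0.37 (SE).

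Bag3 (chr7:128523616-128546981, plus strand) was measured at 101, 99.4, 161 and 41.3 CPM in photoconverted tumors and at 26.8, 53.2, 43.4 and 55.5 CPM in control tumors. Photoconverted tumors 1 to 3 were above all controls, but photoconverted tumor 4 lay below 3 of the 4 control tumors, so the groups overlapped. The log2 fold change was 1.18 ± 0.38 (SE), with means of 101 ± 48.9 and 44.7 ± 13.1 CPM (SD, n = 4 each).

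Hspb8 (chr5:116408491-116422864, minus strand), the partner that BAG3 binds, was at 141, 108, 140.0 and 99.7 CPM in photoconverted tumors and at 94.9, 93.8, 95.1 and 121 CPM in control tumors. Control tumor 4 was above photoconverted tumors 2 and 4, and the other controls were close together and below all photoconverted tumors. The log2 fold change was 0.27 ± 0.15 (SE), the lowest of the 6 tested members. Thus, of the BAG3 and HSPB8 partners, Bag3 had a log2 fold change of 1.18 and Hspb8 of 0.27.

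Among the muscle-restricted members, Hspb6 (chr7:30552178-30555443, plus strand) encodes HSP20, a chaperone of heart, skeletal and smooth muscle. It was measured at 9.71, 16.2, 21.3 and 7.11 CPM in photoconverted tumors and at 7.08, 9.85, 10.4 and 8.12 CPM in control tumors. Photoconverted tumors 2 and 3 were above all controls and tumors 1 and 4 lay within their range. The log2 fold change was 0.62 ± 0.33 (SE), and it was 0.32 without photoconverted tumor 3, the highest. Exons of Hspb6 share 122 bases with Proser3 on the other strand and 77 with Gm38670 on the same strand, 5.31% and 3.35% of its exon bases.

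Hspb7 (chr4:141420779-141425311, plus strand) encodes a heart and skeletal muscle member that associates with filamin C. It was at 3.98, 8.50, 11.8 and 5.13 CPM in photoconverted tumors and at 1.31, 4.82, 5.12 and 4.33 CPM in control tumors. Photoconverted tumor 1 lay below 3 controls, and tumor 4 was just above control tumor 3. The log2 fold change was 0.93 ± 0.47 (SE), and it was 0.63 without control tumor 1, the lowest tumor, and 0.61 without photoconverted tumor 3, the highest.

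Hspb2 (chr9:50751078-50752354, minus strand) encodes a muscle member that binds the myotonic dystrophy kinase. It had 12, 25, 29 and 3 raw counts in photoconverted tumors and 4, 4, 3 and 3 in control tumors. These were 0.300, 0.790, 1.14 and 0.205 CPM in photoconverted tumors and 0.114, 0.428, 0.107 and 0.183 CPM in control tumors. Control tumor 2 was above photoconverted tumors 1 and 4, so the groups overlapped. The means were 0.609 ± 0.438 and 0.208 ± 0.151 CPM (SD, n = 4 each), with a ratio of 2.93. Pooled over each group, 69 and 14 counts gave a ratio of 3.92 after scaling for library size, in which larger libraries weigh more. Neither ratio is read as a test, because the contrast chose the members. Hspb2 and Cryab are neighbors in head-to-head orientation, and 252 exon bases are shared on opposite strands, 30.2% of the exon bases of Hspb2 and 17.0% of those of Cryab. Whether strand was used in counting is not given in the sources used here, so reads from the shared bases cannot be assigned to 1 of the 2 genes.

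**Figure D1:**
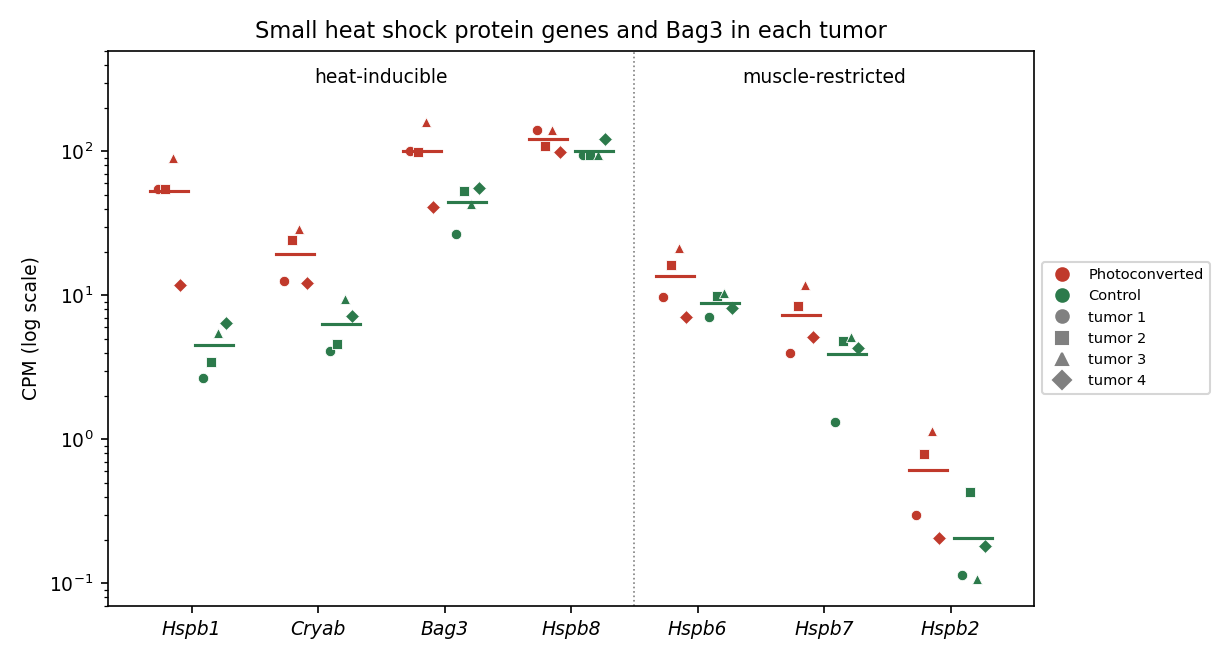
CPM of each member (log axis) in 4 photoconverted tumors (red) and 4 control tumors (green), where a symbol stands for a tumor number and a line for the group mean. The groups are apart for Hspb1 (11.9 to 89.4 against 2.66 to 6.47 CPM) and Cryab (12.1 to 29.0 against 4.14 to 9.45 CPM) and overlap for the other members.

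Of the 6 tested members, 2 (Hspb1 and Cryab) had every photoconverted tumor above every control tumor, an arrangement that 99 of 14468 tested genes (0.684%) also had. The contrast chose the members, so nothing is read from that share. Without photoconverted tumor 4 there were 3 (Hspb1, Cryab and Bag3, against 3.83% of genes), without control tumor 4 also 3 (Hspb1, Cryab and Hspb8, against 2.40%), and without photoconverted tumor 1 also 3 (Hspb1, Cryab and Hspb7, against 0.961%). Among the 5 tumors whose Rn45s share was under 10% there were 4 (Hspb1, Cryab, Bag3 and Hspb8), against 14.0% of genes. The median log2 fold change was 1.40 over the 4 heat-inducible members and 0.78 over the 2 tested muscle-restricted members, beside -0.01 over all tested genes. The medians were 1.11 and 0.47 without photoconverted tumor 3, and 0.93 and 0.31 with a score of skeletal muscle markers (described with the tissue markers) in the fit.

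Photoconverted tumor 4 had the lowest photoconverted value of Hspb1, Cryab, Hspb8, Bag3 and Hspb6, and also the fewest counts of Hspb2. Hspb7 was the exception, with its lowest value in photoconverted tumor 1. Photoconverted tumor 4 was also lowest of its group for 20 of 20 skeletal muscle markers, 8 of 8 leukocyte markers and 14 of 21 other HSF1 targets. The count was lower in some other lists, with 0 of 5 other BAG genes and 1 of 4 heat shock factor genes. Of tested markers it was 2 of 5 for epidermis and 3 of 7 for smooth muscle, and a share over all tested genes is not given. The Rn45s share of photoconverted tumor 4 was the highest of its group, and the part of these in the member values was not tested.

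Tumors with the same number deviated from their group means with a positive correlation in each pair, so members were also described by same-numbered pairs. The sample titles state no pairing, and some differently numbered tumors correlated as highly. Photoconverted over control CPM was 20.8-fold, 16.0-fold, 16.2-fold and 1.84-fold for Hspb1 in pairs 1 to 4. For Cryab it was 3.04-fold, 5.30-fold, 3.07-fold and 1.69-fold, and for Hspb7 it was 3.03-fold, 1.76-fold, 2.30-fold and 1.18-fold. All 4 pairs were higher for these genes. For Hspb2, which had few counts, it was 2.63-fold, 1.84-fold, 10.7-fold and 1.12-fold, with 3 raw counts in each tumor of pair 4. For Bag3 the ratios were 3.77, 1.87, 3.71 and 0.744, for Hspb6 1.37, 1.65, 2.05 and 0.875, and for Hspb8 1.49, 1.15, 1.47 and 0.824. In each of these last 3 genes the exception was pair 4.

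For comparison between genes, CPM was divided by the exon length of each gene. In control tumors the order of CPM per kb was Hspb8 (51.9 ± 6.79), Bag3 (17.5 ± 5.10), Hspb1 (4.38 ± 1.72), Cryab (4.28 ± 1.67), Hspb6 (3.85 ± 0.664), Hspb7 (1.41 ± 0.633) and Hspb2 (0.249 ± 0.181; SD, n = 4 each). The ranges of Hspb1 and Cryab and of Cryab and Hspb6 overlapped, so these neighbors did not differ beyond their spread. The ranges of Hspb7 and Hspb2 also overlapped, although Hspb7 was above Hspb2 in each of the 4 control tumors. In photoconverted tumors the order was Hspb8 (62.7 ± 11.0), Hspb1 (51.2 ± 30.8), Bag3 (39.3 ± 19.1), Cryab (13.2 ± 5.75), Hspb6 (5.91 ± 2.79), Hspb7 (2.65 ± 1.27) and Hspb2 (0.731 ± 0.525; SD, n = 4 each). Hspb1 thus stood below Bag3 in the control order and above it in the photoconverted order, where it had a range that overlapped those of Hspb8 and Bag3.

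The make-up of the family differed accordingly. Summed over the 6 small heat shock protein genes, the level was 140.5, 136, 193 and 76.0 CPM per kb in photoconverted tumors 1 to 4 and 57.7, 61.1, 67.0 and 78.5 CPM per kb in control tumors 1 to 4. Hspb8 made up 51.6%, 40.7%, 37.2% and 67.3% of that sum in photoconverted tumors and 84.3%, 78.8%, 72.8% and 79.1% in control tumors. Hspb1 made up 38.1%, 39.0%, 44.9% and 15.2% in photoconverted tumors and 4.46%, 5.44%, 7.98% and 8.00% in control tumors. In other words, Hspb8 was the most abundant member in 7 of 8 tumors, and in photoconverted tumor 3 Hspb1 was above it.

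**Figure D2:**
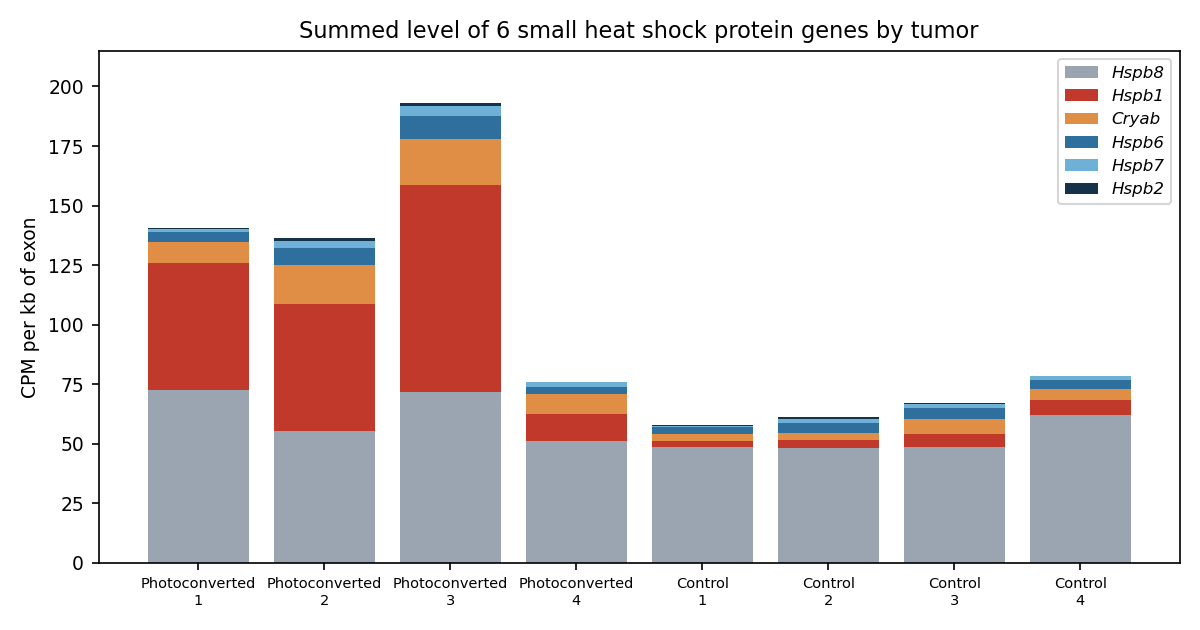
Summed CPM per kb of exon of 6 small heat shock protein genes in each tumor, with 1 colored segment per gene. The Hspb1 segment is 38.1%, 39.0%, 44.9% and 15.2% of the bar in photoconverted tumors 1 to 4 and at most 8.00% in control tumors.

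The ratio of Bag3 to Hspb8, per kb, was 0.544, 0.699, 0.877 and 0.316 in photoconverted tumors and 0.215, 0.432, 0.348 and 0.349 in control tumors, so photoconverted tumor 4 lay within the control range. The ratio of Cryab to Hspb6, which are both muscle chaperones, averaged 2.28 ± 0.280 in photoconverted and 1.10 ± 0.340 in control tumors (SD, n = 4 each). The lowest photoconverted ratio was 2.02 and the highest control ratio 1.42. As ratios of genes chosen on this contrast, these are also descriptions.

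Several members are muscle genes, so the level of tissue markers was measured beside them. The sum of 20 skeletal muscle markers was 851, 1343, 2827 and 348 CPM in photoconverted tumors 1 to 4 and 732, 727, 859 and 325 CPM in control tumors 1 to 4. It was higher in the photoconverted tumor of every same-numbered pair, but the difference between the groups was not larger than their spread (1342 ± 1070 against 661 ± 232 CPM, two-sided exact permutation p = 0.229, n = 4 each). Without photoconverted tumor 3, the log2 ratio of the mean sums was 0.36 in place of 1.02. Of 70 arrangements of the tumors, the smallest p that can be reached is 0.0286, so 1 list alone could not pass after adjustment over 8 lists. The sum of 9 smooth muscle markers was 142 ± 9.41 and 146 ± 18.2 CPM (SD, n = 4 each; two-sided exact permutation p = 0.743). Smtn, at a mean of 85.5 CPM, was the most abundant of them. Of the 7 tested smooth muscle markers, 5 were higher and 2 lower, with a median log2 fold change of 0.09. Only for Cnn1 were the groups apart, with 110 raw counts in all. It was at 0.876, 0.632, 0.906 and 0.547 CPM in photoconverted tumors. In control tumors it was at 0.314, 0, 0.213 and 0.427 CPM, and edgeR did not call it. Heart muscle markers, of which Nppa was at or near 0, summed to 10.1 ± 5.54 and 6.08 ± 2.86 CPM (SD, n = 4 each).

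Other tissues were also compared. Epidermal markers summed to 15.5 to 38.5 CPM in photoconverted and 9.56 to 19.3 CPM in control tumors, and adipocyte markers to 22.1 to 94.7 and 20.4 to 56.9 CPM. Sbsn was the most abundant epidermal marker (log2 fold change 0.13), at 13.4 of 31.4 CPM in photoconverted tumor 2 and 17.2 of 38.5 CPM in photoconverted tumor 3. The keratin gene Krt14 was at 1.10, 5.56, 4.85 and 0.273 CPM in photoconverted tumors and at 0.571, 0.214, 1.28 and 0.366 CPM in control tumors. The median log2 fold change was 1.60 over the 5 tested epidermal markers and 1.07 over the 20 skeletal muscle markers, 0 of either were called by edgeR, and the part of epidermis in the member values was not tested. Endothelial markers ranged from 128 to 184 and from 123 to 156 CPM, and leukocyte markers, of which Ptprc was the most abundant, from 214 to 497 and from 154 to 449 CPM. In the leukocyte list the neutrophil gene S100a8 was at 10.4, 10.4, 18.1 and 1.37 CPM in photoconverted tumors and at 2.46, 0.321, 1.92 and 1.46 CPM in control tumors. It was thus high in photoconverted tumors 1 to 3, as Hspb1 was, with a log2 fold change of 2.62 (1.56 at equal skeletal muscle score). That of the neutrophil receptor gene Csf3r was 0.88 (0.37 at equal score). Of the 8 leukocyte markers, 5 were higher and 3 lower, with a median log2 fold change of 0.09 (-0.31 at equal score). Neither S100a8 nor Csf3r was called by edgeR, and their part in the member values was not tested. Krt8, Krt18, Krt19, Epcam and Cdh1, which mark epithelial tumor cells, summed to 2.14 to 5.37 CPM in the 8 tumors, so these markers were near 0 in tumors labelled MC38. Adjusted p was at least 0.686 over the 8 lists (two-sided exact permutation test). In photoconverted tumor 3, which had the highest level of every member except Hspb8, the skeletal muscle, heart muscle, epidermal, adipocyte, endothelial and leukocyte sums were also the highest of the 8 tumors.

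To set skeletal muscle beside the members, a score was taken as the mean over the tested skeletal markers of log2 CPM minus the gene's mean. At equal score, the log2 fold change was 2.75 ± 0.51 (SE) for Hspb1, 1.19 ± 0.33 for Cryab and 0.66 ± 0.35 for Bag3. It was 0.22 ± 0.18 for Hspb8, 0.53 ± 0.48 for Hspb7 and 0.10 ± 0.20 for Hspb6. Hspb6 thus kept 15.3% of its log2 fold change, whereas Hspb1 kept 77.6%, Cryab 73.9% and Hspb8 81.8%. Bag3 kept 55.9% and Hspb7 57.0%. With SEs of this size beside the values of Hspb8, Hspb7 and Hspb6, the members cannot be ranked by the share kept. With the replicate number as a block, however, adding the score took the log2 fold change from 0.27 to 0.04 for Hspb8 and from 0.97 to 0.77 for Hspb7. In the same blocked fits it went from 3.40 to 2.41 for Hspb1, from 1.58 to 1.23 for Cryab, from 1.10 to 0.43 for Bag3 and from 0.53 to 0.04 for Hspb6. The shares kept thus depend on the fit for Hspb8 and Hspb7, and also for Bag3 and Hspb6.

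**Figure D3:**
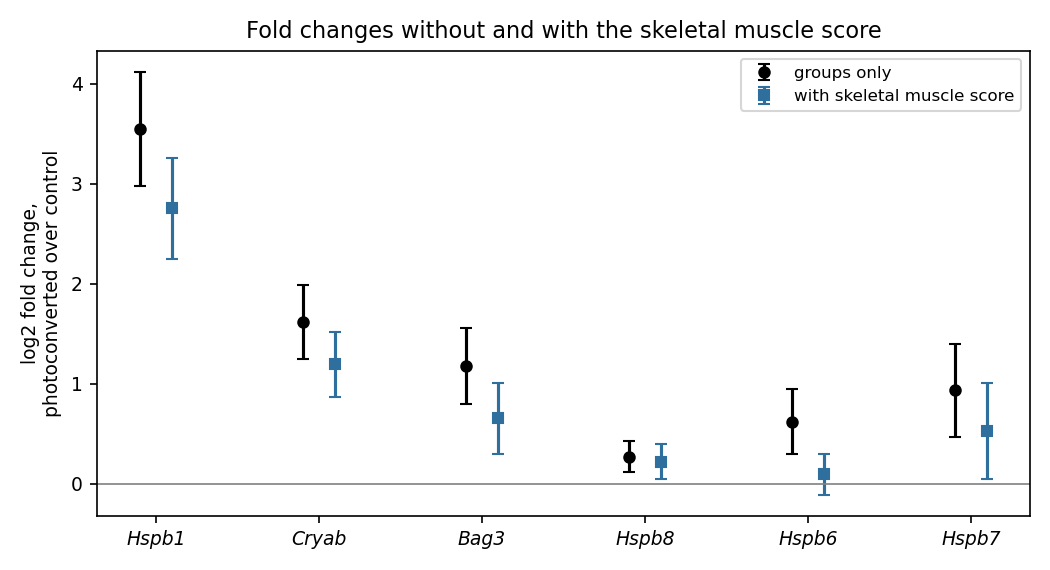
Log2 fold change (photoconverted over control) with its SE for the 6 tested members, from the fit with groups alone (black circles) and the fit with the skeletal muscle score (blue squares). Hspb1 falls from 3.55 to 2.75 and Hspb6 from 0.62 to 0.10.

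The slope of each member on the score, with group in the model, was not used to choose the members. Of 14468 genes, 29 (0.200%) had a slope that passed an adjusted p of 0.05 in edgeR's test, and 0 of the 6 members did. The slope per unit of score was 0.51 ± 0.11 (SE) for Hspb6 (adjusted p = 0.151, edgeR), 0.65 ± 0.27 for Hspb1 (adjusted p = 0.273, edgeR) and 0.41 ± 0.17 for Cryab (adjusted p = 0.274, edgeR). It was 0.44 ± 0.19 for Bag3 (adjusted p = 0.277, edgeR), 0.39 ± 0.24 for Hspb7 (adjusted p = 0.377, edgeR) and 0.05 ± 0.09 for Hspb8 (adjusted p = 0.744, edgeR). Hspb8 was thus the member with the flattest slope, although none of the 6 slopes passed the threshold.

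**Figure D4:**
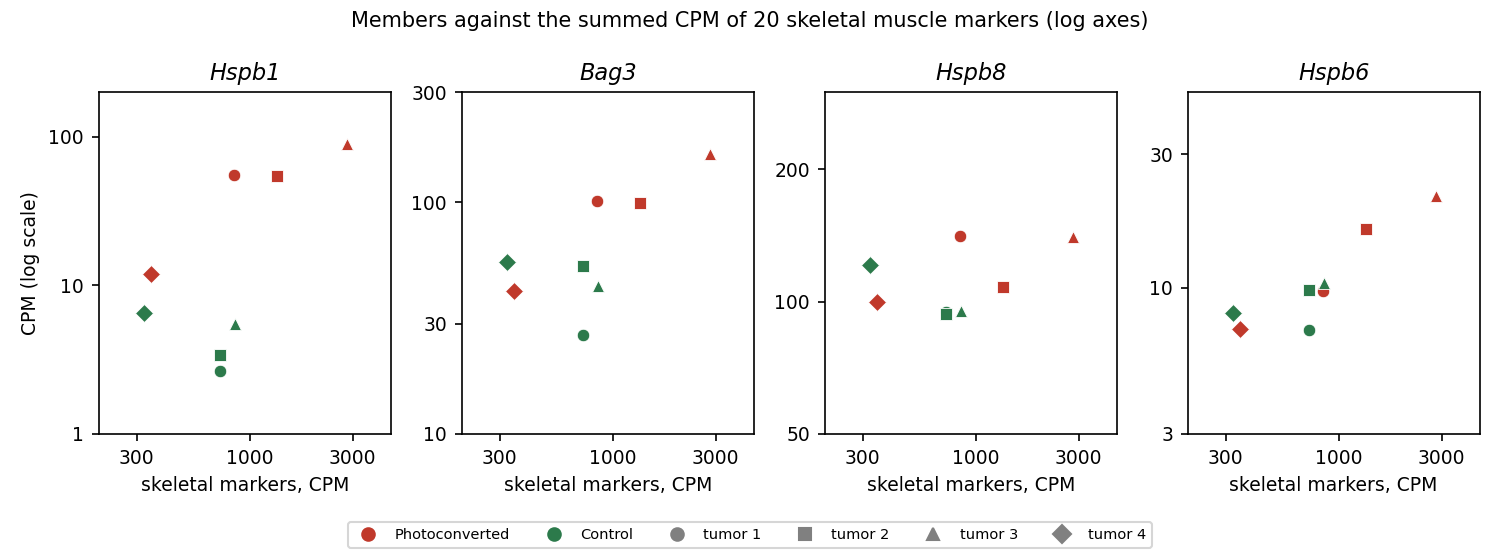
CPM of Hspb1, Bag3, Hspb8 and Hspb6 against the summed CPM of 20 skeletal muscle markers (log axes) in 4 photoconverted (red) and 4 control (green) tumors, with a symbol per tumor number. Hspb1 (89.4 CPM), Bag3 (161 CPM) and Hspb6 (21.3 CPM) are all highest where the marker sum is highest (2827 CPM), and Hspb1 differs between photoconverted tumor 1 (55.1 CPM) and control tumor 3 (5.51 CPM), whose marker sums were 851 and 859 CPM.

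Pairs of tumors with like marker sums show the members side by side. Photoconverted tumor 1 and control tumor 3 had marker sums of 851 and 859 CPM, and their levels were 55.1 and 5.51 CPM for Hspb1, 12.6 and 9.45 CPM for Cryab, 101 and 43.4 CPM for Bag3 and 141 and 95.1 CPM for Hspb8. The order was the other way for Hspb6 (9.71 and 10.4 CPM) and Hspb7 (3.98 and 5.12 CPM), but not for Hspb2 (12 and 3 raw counts). Photoconverted tumor 4 and control tumor 4 had marker sums of 348 and 325 CPM, with 11.9 and 6.47 CPM for Hspb1, 12.1 and 7.14 CPM for Cryab and 5.13 and 4.33 CPM for Hspb7. In this pair the photoconverted tumor was lower for Bag3 (41.3 and 55.5 CPM), Hspb8 (99.7 and 121 CPM) and Hspb6 (7.11 and 8.12 CPM), and Hspb2 had 3 raw counts in each. Bag3, Hspb8 and Hspb7 thus ran in opposite directions in the 2 comparisons. These pairs were picked after the sums were seen, have 1 tumor on each side and carry no test.

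For each tested member, the 3 other tested genes with the highest Pearson r of log2 CPM over the 8 tumors were listed. Each r is over 8 tumors that share their groups and libraries, and is given with no p. Nearest to Hspb1 were Usp42 (r = 0.983), a ubiquitin protease, Hsph1 (0.973), which encodes HSP110, and Rrad (0.972), a small GTPase of muscle. Nearest to Cryab were Klhl40 (0.985), Xirp1 (0.959) and Trim63 (0.956), which are genes of striated muscle. Those near Hspb6 included Tnni2 (0.982) and Actn2 (0.980), which encode fast troponin I and the Z-disc protein alpha-actinin 2.

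The other tested members were Bag3, Hspb7 and Hspb8. Nearest to Bag3 were G0s2 (r = 0.990), an inhibitor of lipolysis, Socs3 (0.984), a feedback inhibitor of cytokine signaling, and Dnaja4 (0.973), an HSP40 co-chaperone. Hspb7 was nearest to the adipocyte gene Plin1 (0.976), Thbs3 (0.964) and the elongation factor gene Ell (0.955). Hspb8 was nearest to Fnbp4 (0.951), the kinase gene Mapk6 (0.940) and Zfp142 (0.940). No member was among the nearest 3 of another. Between members, r was highest for Hspb1 and Cryab (0.928) and for Hspb1 and Bag3 (0.913) and lowest for Hspb8 and Hspb7 (0.421). Since that r includes the contrast that chose the members, the group means were also taken out. It was then highest for Hspb1 and Bag3 (0.922), Hspb6 and Bag3 (0.823) and Cryab and Hspb6 (0.817). For Hspb1 and Cryab it was 0.735, and for Hspb8 and Hspb7 0.150.

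Other genes of the pathway were described from lists. Of 21 tested HSF1 targets that are not members, 18 had a positive and 3 a negative log2 fold change, and 0 were called by edgeR. Their median log2 fold change was 0.35 (0.30 at equal muscle score), beside -0.01 over all tested genes. The 3 with the smallest p were Hsph1 (log2 fold change 1.81), Dnaja1 (0.79) and Dnajb1 (1.83), which encode HSP110 and HSP40 co-chaperones that work with HSP70. The inducible HSP70 genes Hspa1a and Hspa1b of the same list were at 4.38 ± 1.28 and 4.14 ± 1.20 (SE), beside 3.55 ± 0.57 for Hspb1, and the differences between these genes were not tested. Both were lower in photoconverted tumor 4 (71.6 and 119 CPM) than in control tumor 4 (433 and 623 CPM), so their groups overlapped, unlike those of Hspb1. The heat shock factor genes Hsf1, Hsf2 and Hsf4 and the factor-binding gene Hsbp1 had log2 fold changes of 0.04, 0.10, 0.32 and 0.00, and 0 of 4 were called.

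Among the other BAG genes, which encode co-chaperones with the HSP70-binding domain of BAG3, the log2 fold changes were 0.09 for Bag1, 0.04 for Bag2, 0.09 for Bag4, -0.05 for Bag5 and -0.09 for Bag6, and 0 of 5 were called. Bag3 itself was at 1.18. Of 8 tested partners of BAG3 in autophagy, 5 were higher, 3 lower and 0 called, with a median of 0.08. Those with the smallest p included Hspa8 (0.56), the constitutive HSP70, and Synpo2 (0.61), a Z-disc adaptor that recruits BAG3 to filamin. At equal muscle score the log2 fold change of Synpo2 was 0.07.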

How the data were processed

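Bulk RNA-seq was analysed for 8 tumors. The tables deposited by the authors hold, by gene symbol, raw counts and, separately, a normalized signal (the count divided by a DESeq2 size factor). Each tumor has values for 24421 genes in the raw table and 19823 in the normalized table. The submitters' processing notes name CASAVA, FastQC, Trim Galore, HISAT2, featureCounts and DESeq2 and the build mm10, and the annotation, versions and strand setting are not given in the sources used here. Sample labels name a SMARTER stranded kit, and the methods of the study a TruSeq stranded kit. All columns were mapped to tumors by the letters in the labels (0 left unmapped).

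Counts were fitted in R 4.3.3 with edgeR 4.0.16 (TMM, filterByExpr, glmQLFit and glmQLFTest; Benjamini-Hochberg adjustment over 14468 genes, threshold 0.05). Log2 CPM used a prior count of 2. DESeq2 1.42.0, limma 3.58.1 (log2 of normalized values plus 1, mean of at least 10), other scalings, the filter, the skeletal muscle score, the replicate number as a block, the 5 tumors whose Rn45s share was under 10% and leaving out each tumor were alternatives. Marker sums were compared with two-sided exact permutation tests in Python 3.11.15 (scipy 1.17.1). Exon lengths and locations came from GENCODE (GRCm38), promoters from RefSeq (GRCm38.p6). Scripts were tested on simulated data.

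The members and lists were chosen with earlier results of these data known. The members' slopes on the muscle score were examined after the data were seen. Genes named were the 7 members, the 3 nearest genes of each tested member, and of each pathway list all genes where 5 or fewer were tested, otherwise the 3 with the smallest p. Some genes that this rule names are not reported here. Of each marker list, the rule allowed the most abundant gene and those at 0. Genes of overlapping exons and the epithelial markers were named beside it. Hspa1a, Hspa1b, Krt14, S100a8, Csf3r and Cnn1 were named after their values were seen. Both groups carry numbers 1 to 4, and deviations from the group means correlated between same-numbered tumors at r = 0.597, 0.107, 0.407 and 0.623 across genes. The tumors were therefore also described as same-numbered pairs, a pairing that the sample titles do not state. The permutation tests of the marker sums did not use the pairs. Some tumors with different numbers correlated as highly (photoconverted 3 with control 1, r = 0.482; photoconverted 1 with control 3, r = 0.455; photoconverted 4 with control 2, r = 0.346).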

Additional observations from a re-analysis of the deposited data

Results flagged for a closer look

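Hspb8 in control tumor 4 was 121 CPM, against 95.1 CPM in the nearest other control tumor, and stood apart from the other controls by its gap over the group's range. It was 1 of 30 groups examined (each member and marker list in each group), of which chance would flag about 1 in 20, or 1.5 groups. Control tumor 4 also had an Rn45s share of 23.2% and the lowest skeletal muscle marker sum (325 CPM), and the part of either was not tested.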

How the results depend on the processing

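No fit changed the sign of a member's log2 fold change. Over 17 settings the lowest and highest values were 2.41 and 4.04 for Hspb1, 1.19 and 1.88 for Cryab, 0.43 and 1.78 for Bag3, 0.04 and 0.45 for Hspb8, 0.04 and 0.85 for Hspb6 and 0.53 and 1.34 for Hspb7. With a replicate block, 0 genes were called (869 at an unadjusted p under 0.05), and with the block and the muscle score together the median of the heat-inducible members was 0.83, against 1.40. The count of called genes was 24 with DESeq2, 42 in the 5 tumors whose Rn45s share was under 10%, and 0 to 11 when 1 tumor was left out, of which 11 was without photoconverted tumor 4; the cause was not tested. In the same 5 tumors the groups did not overlap for 4 members and for 14.0% of tested genes. The smooth muscle log2 ratio was 0.30 as a mean log2 score and between -0.113 and 0.0304 when 1 tumor was left out. Those ranges were 0.36 to 1.34 for skeletal muscle, -0.0893 to 0.365 for leukocyte and -0.0132 to 0.382 for epithelial markers. Hspb2 is limited by few counts and by the exon bases it shares with Cryab.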

Other observations

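Of the other small heat shock protein genes, Hspb11, a ciliary protein gene counted with the family by name, had a log2 fold change of -0.12, from means of 10.1 ± 1.43 CPM (photoconverted) and 11.0 ± 3.00 CPM (control; SD, n = 4 each). The lens gene Cryaa had 19 counts over all 8 tumors, the heart and skeletal muscle gene Hspb3 had 24, the testis gene Hspb9 had 16 and the sperm tail gene Odf1 had 0. For Odf1, a count of 0 allows up to 3 counts, that is, from 0.0751 to 0.321 CPM depending on the tumor.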
